A study of Mus musculus with 6 samples.

Results

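The 9 Toll-like receptor genes Tlr1 to Tlr9 and Myd88, the adaptor that most of these receptors share, were followed in OP9 cells with a hairpin against Smoothened (Smo) and in OP9 cells with a scrambled control hairpin. These 10 genes are represented by 88 of the 1256831 probe sets of the array table, taken as every probe set whose only gene symbol is one of the 10. The set was proposed with the difference between the 2 lines already known, so its differences are given here as a description, without a test of their own. The control cells (NT) carry pLKO.1-Puro lentivirus with the scrambled hairpin, and the Smo shRNA cells (Smo-kd) carry the same vector with a hairpin against Smo. Both are stable transduced lines kept below confluence with no treatment listed, and 3 RNA samples of each were measured on the Affymetrix Mouse Exon 1.0 ST chip, 1 array per sample. OP9 is a mouse stromal line that supports lymphoid cells in culture. The labels name no separate cultures or transductions behind the 3 samples and do not say how many hairpin sequences were used. The p-values below therefore cover only variation among RNA samples of the same line, and a difference between the lines from before or during selection cannot be told apart from an effect of the hairpin. Whether fewer cells express a gene or each cell holds less of its RNA also cannot be told apart in RNA from whole cultures.

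Toll-like receptors recognise microbial molecules and signal through adaptors that bind their cytoplasmic TIR domain. Tlr2 pairs with Tlr1 or Tlr6 at the cell surface to sense bacterial lipopeptides, Tlr4 with its partner Md-2 (Ly96) senses lipopolysaccharide, and Tlr5 senses flagellin. Tlr3, Tlr7, Tlr8 and Tlr9 lie in endosomes, where Tlr3 binds double-stranded RNA, Tlr7 and Tlr8 belong to the branch that binds single-stranded RNA, and Tlr9 binds unmethylated CpG DNA. Myd88 carries the signal of all of them except Tlr3, which uses Trif (Ticam1), and it serves the interleukin 1 and interleukin 18 receptors as well. Stromal cells that carry these receptors answer microbial products with chemokines and cytokines.

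On the array scale (log2, per probe set, joined per gene) the target of the hairpin, Smo, read 12.29, 12.22 and 12.24 in the 3 control arrays and 11.32, 11.36 and 11.44 in the 3 Smo shRNA arrays. Each of its 26 probe sets that entered the test was lower. Medians of the 6 arrays lay between 6.56 and 6.59. A probe set was kept when its mean over the 6 arrays reached the median of all probe sets (6.56), and a gene was tested when it had 3 kept probe sets. The tests used limma on all 16871 such genes with an adjusted p threshold of 0.05. At that threshold 38.6% of the genes differed between the lines, 17.4% being lower and 21.3% higher in Smo shRNA cells, with a median difference of 0.01 on the log2 scale. With each array centred on the median of its kept probe sets, the balance of the calls turned, to 3601 lower and 3128 higher. The median difference was then -0.03.

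Markers of stromal and other cell types were described next. Of 17 tested macrophage and monocyte markers 1 rose and 0 fell. Their control means lay between 6.81 and 8.55, and their levels summed to 130.65 to 132.55 in control arrays and 131.02 to 133.23 in Smo shRNA arrays. The exception was Cd68, a lysosomal membrane protein, which went from 8.54 to 9.01 (log2 difference 0.47, SE 0.07, adjusted p = 0.000162). Of 5 B cell, 6 dendritic and T cell and 8 endothelial markers tested, 0 passed in either direction. Summed levels were 39.53 to 40.23 against 39.74 to 39.99 for the B cell markers, 45.67 to 46.35 against 45.87 to 46.81 for the dendritic and T cell markers, and 60.72 to 61.64 against 60.40 to 61.69 for the endothelial markers. A marker was tested only through kept probe sets, so its level cannot show whether cells of these types were present. The part of such cells in the results below was not tested. Of 14 tested stromal markers 8 fell, 0 rose and 6 did not pass, beside 17.4% lower and 21.3% higher among all genes. Those that fell included Pdgfra, whose control mean was 10.86 and whose Smo shRNA mean was 10.52, and Cxcl12 (13.30 and 12.58). Dcn, a proteoglycan of many fibroblasts, read 6.91 in control cells, near the median of all probe sets. Thy1 read 7.27 in control cells and did not pass, and the stromal markers Lum and Fap were not tested.

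Of the 10 genes, 9 had a gene value and Tlr7 did not. Among those 9, 8 were lower in Smo shRNA cells at the threshold, 0 were higher and 1 did not pass, where 17.4% of all genes tested were lower. The same 8 had no overlap between the 3 control and 3 Smo shRNA arrays, which held in that direction for 21.4% of all genes. The median difference of the 9 was -0.91, with 0.01 for all genes. Counted by probe set, 45 of the 65 kept ones were lower at the threshold and 0 were higher, where 12.4% of all 245574 kept probe sets were lower and 17.5% higher. Without overlap and lower were 48 of the 65, and 17.4% of all kept probe sets. Because the genes were chosen with this comparison known, nothing is read from these counts. The differences were unequal within the family: Tlr1 and Tlr8 were lower by about 2 log2 units, with Smo shRNA levels near or below the median of all probe sets, Tlr3 by 1.22, Tlr2 and Tlr6 by about 0.9, Tlr4, Tlr5 and Myd88 by about 0.3, and Tlr9 was level.

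**Figure D1:**
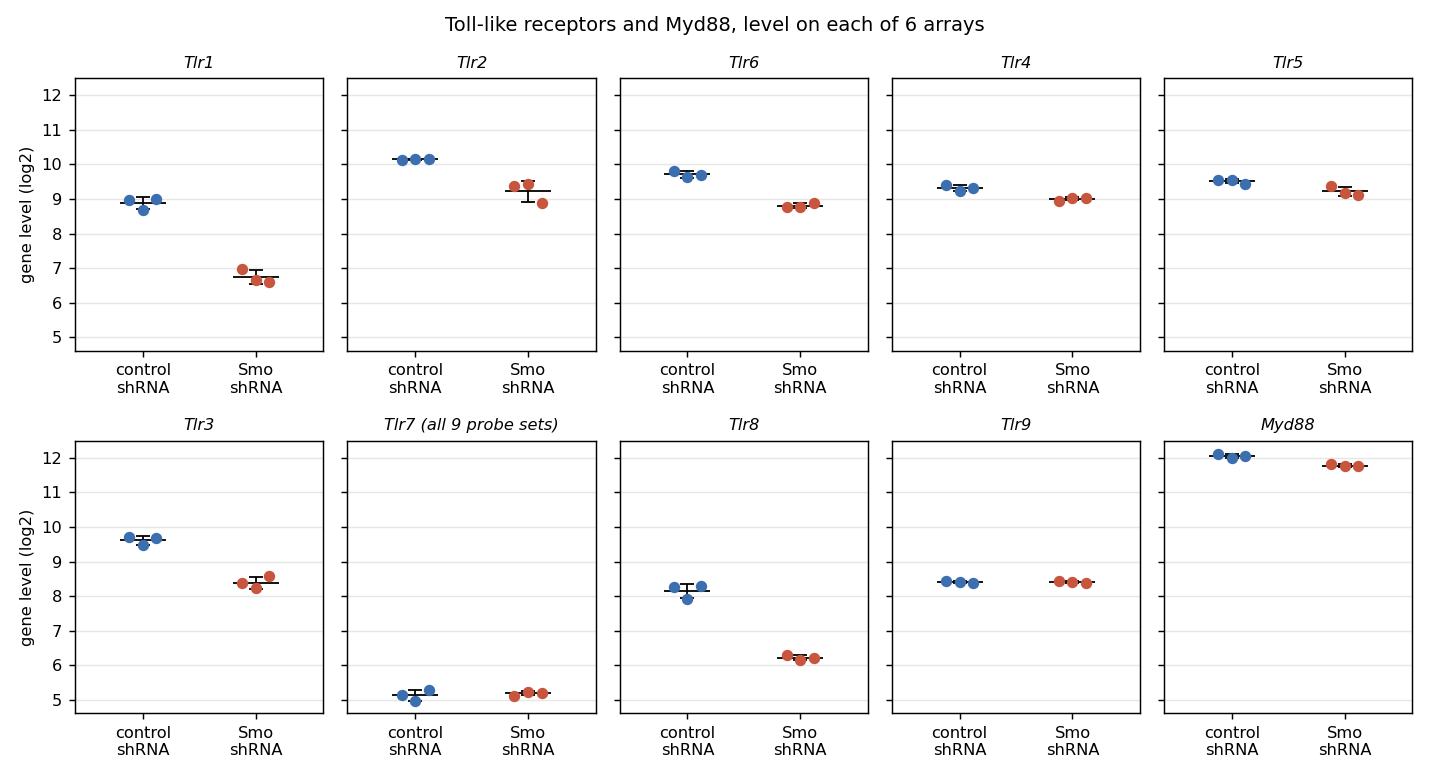
Gene level (log2, y axis) of the 9 receptors and Myd88 on each array (points), with the mean and SD of 3 control shRNA (blue) and 3 Smo shRNA arrays (red). Tlr7 is drawn from all 9 of its probe sets, most of them dim. The 3 and 3 points do not overlap for Tlr1, Tlr2, Tlr3, Tlr4, Tlr5, Tlr6, Tlr8 and Myd88, and overlap for Tlr7 and Tlr9. Levels of different genes are not comparable, since probe sets differ in background and in response.

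The lipopeptide receptors come first. Tlr1, which pairs with Tlr2 to sense triacylated lipopeptides, read 8.96, 8.67 and 8.98 in control arrays and 6.96, 6.66 and 6.59 in Smo shRNA arrays. Every control array was well above every Smo shRNA array. The means were 8.87 ± 0.17 and 6.74 ± 0.20 (SD, n = 3), a log2 difference of -2.13 (SE 0.11). The Smo shRNA mean lay close to the filter (6.56), near which signal and background are not distinguished, so no fold is given and the size is uncertain. All 7 Tlr1 probe sets were lower and 6 of them did not overlap between the lines. The brightest, probe set 5463771, read 11.06, 10.77 and 11.08 against 9.06, 8.75 and 8.84, a difference of -2.08. In the control arrays the gene value moved in step with this probe set, and both had an SD of 0.17. The agreement of this probe set with the gene value is therefore not a separate reading. The differences of the 5 kept probe sets ran from -2.81 to -1.76. Only 2 of these 5 had a Smo shRNA mean above the filter, so the other 3 were kept through the control arrays, which by itself selects for a lower Smo shRNA level.

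Tlr6, which pairs with Tlr2 to sense diacylated lipopeptides and lies next to Tlr1 on chromosome 5, read 9.82, 9.63 and 9.69 in control arrays. In Smo shRNA arrays it read 8.77, 8.76 and 8.88. The groups were far apart, at 9.71 ± 0.10 and 8.80 ± 0.07 (SD, n = 3), and the difference was -0.91 (SE 0.07), 1.88-fold lower. All 11 Tlr6 probe sets were lower without overlap. Of the 10 kept ones 7 differed by -1.08 to -0.94, close to the brightest at -0.94, while probe set 4367059 differed by only -0.21. Among these 7, probe set 4329593 had a Smo shRNA mean of 6.16, under the filter, and was kept through the control arrays. Tlr1 and Tlr6 are close paralogs, and a probe set of one can carry signal of the other. The part of such shared signal in their differences was not tested.

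Tlr2, the common partner of both, was the least even of the group. Its gene value was 10.14, 10.16 and 10.15 in control arrays and 9.36, 9.44 and 8.88 in Smo shRNA arrays, the last of which lay below the other two. The difference was -0.92 (SE 0.11), 1.89-fold lower, from 10.15 ± 0.01 to 9.23 ± 0.30 (SD, n = 3). It rests on 3 kept probe sets that gave 3 different answers. Probe set 4798823 read 10.38, 10.27 and 10.44 against 8.75, 8.63 and 8.80 (-1.64), and probe set 4780039 differed by -0.92. Probe set 4406822 read 9.75, 9.98 and 9.51 against 9.54, 9.64 and 9.58, with overlapping groups and a difference of -0.16. The gene value equals the middle of the 3, and it moved to -0.65 when the 2 dim probe sets were included. The direction was the same in all 5 probe sets, but the size of the Tlr2 difference is uncertain.

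Tlr4, the lipopolysaccharide receptor, read 9.39, 9.22 and 9.32 in control arrays and 8.95, 9.03 and 9.03 in Smo shRNA arrays. The groups did not overlap, but the gap between the nearest arrays was small, and the difference was -0.31 (SE 0.06), 1.24-fold lower. All 7 Tlr4 probe sets passed the filter. The 3 brightest were lower by 0.41 to 0.49, and the dimmest was level at 0.00. Tlr5, the flagellin receptor, read 9.56, 9.55 and 9.43 against 9.37, 9.16 and 9.12, a difference of -0.30 (SE 0.07). Of its 5 kept probe sets 2 were lower at the threshold, the clearest being probe set 4999441 at -0.55, and probe set 5267863 differed by 0.03. Tlr5 no longer passed in 4 of the 6 fits that left out 1 array, namely without control replicate 1 (-0.23) or 2 (-0.23) and without Smo shRNA replicate 2 (-0.26) or 3 (-0.24).

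Among the endosomal receptors, Tlr3 had the most probe sets. Tlr3, the sensor of double-stranded RNA that works without Myd88, read 9.70, 9.47 and 9.68 in control arrays and 8.37, 8.23 and 8.57 in Smo shRNA arrays. The lowest control array was well above the highest Smo shRNA array. Means were 9.62 ± 0.13 and 8.39 ± 0.17 (SD, n = 3), a difference of -1.22 (SE 0.09) or 2.34-fold lower. All 15 kept Tlr3 probe sets were lower without overlap, and 14 of them differed by -1.49 to -1.05. The brightest, probe set 5486817, had means of 11.55 and 10.23, a difference of -1.32. The exception was probe set 5337674 at -0.45, which read 8.77, 8.63 and 8.67 against 8.39, 8.14 and 8.20. The 4 dim probe sets of Tlr3 lay between -0.97 and 0.14.

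Tlr8 read 8.26, 7.92 and 8.29 in control arrays and 6.29, 6.17 and 6.21 in Smo shRNA arrays. The Smo shRNA values lay close together and below the median of all probe sets, at 6.23 ± 0.06 against 8.16 ± 0.21 in control cells (SD, n = 3). The difference was -1.93 (SE 0.10) on the array scale. No fold is given, since the Smo shRNA level cannot be told from background. All 7 Tlr8 probe sets were lower without overlap, from -3.27 for probe set 5229172, which read 8.59, 8.11 and 8.78 against 5.22, 5.10 and 5.36, to -0.90 for the dimmest. Only 2 of its 4 kept probe sets passed the filter by their Smo shRNA mean, as for Tlr1. Those 2 differed by -1.46 and -1.36, and without the filter the Tlr8 gene difference was -1.68.

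Tlr7, its neighbour on the X chromosome, behaved otherwise. Of 9 Tlr7 probe sets 1 was kept, reading 7.96, 7.86 and 8.06 against 7.93, 7.92 and 8.04, a difference of 0.00. Joined over all 9, Tlr7 read 5.15, 4.97 and 5.29 in control arrays and 5.13, 5.24 and 5.22 in Smo shRNA arrays, and the groups overlapped. With 5 probe sets higher, 4 lower and 8 of the 9 under the filter, a level of Tlr7 above background was not established in either line. Tlr9, the CpG DNA receptor, read 8.43, 8.41 and 8.40 in control arrays and 8.43, 8.41 and 8.39 in Smo shRNA arrays, a difference of 0.00 (SE 0.06) with full overlap. Its 9 kept probe sets differed by -0.35 to 0.13 and 0 of them passed, the brightest reading 10.81, 10.80 and 10.67 against 10.81, 10.78 and 10.77. Whether the Tlr9 gene value was above background in either line was not tested, so a level reading need not mean unchanged expression.

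Myd88, the shared adaptor, was bright and slightly lower. It read 12.12, 12.00 and 12.06 in control arrays and 11.81, 11.75 and 11.77 in Smo shRNA arrays, without overlap. The means were 12.06 ± 0.06 and 11.77 ± 0.03 (SD, n = 3), a difference of -0.28 (SE 0.04) or 1.22-fold lower. Its 6 kept probe sets agreed closely, from -0.37 to -0.26, and each was lower without overlap. The probe set that was not kept read at most 6.10 on any array and differed by 0.45, with overlapping groups.

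**Figure D2:**
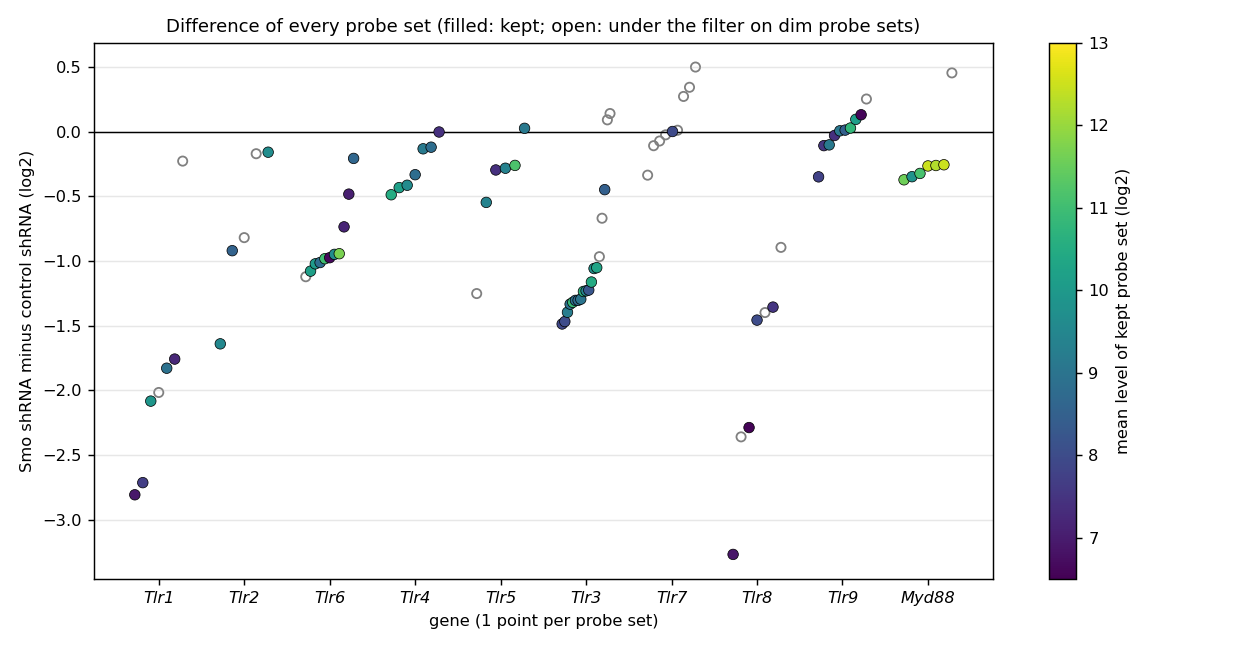
Difference between the lines (Smo shRNA minus control shRNA, log2, y axis) for each of the 88 probe sets, grouped by gene. Filled points are the 65 kept probe sets, coloured by mean level, and open points are the 23 under the filter on dim probe sets. The 6 kept Myd88 probe sets lie between -0.37 and -0.26, the 15 kept Tlr3 probe sets between -1.49 and -0.45, with 14 of them at -1.05 or lower, Tlr2 spreads from -1.64 to -0.16, and Tlr9 lies around 0.

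The sequence just before the annotated start of transcription is printed for 4 genes, Tlr1 and Tlr8 with the largest differences, Myd88 with a small one and Tlr9 with none. Only bases outside the span of the gene in RefSeq were taken (GRCm38.p6). Capitals mark a match, on either strand, to an interferon regulatory factor element (GAAA, any 2 bases, GAAA) or to an AP-1 site (TGANTCA).
Tlr1, chr5:64933601-64933808, minus strand: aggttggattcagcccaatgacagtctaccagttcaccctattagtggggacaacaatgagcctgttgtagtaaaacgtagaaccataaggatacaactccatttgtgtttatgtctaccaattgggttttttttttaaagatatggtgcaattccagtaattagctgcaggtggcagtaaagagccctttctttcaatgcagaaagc
Tlr8, chrX:167264330-167264579, minus strand: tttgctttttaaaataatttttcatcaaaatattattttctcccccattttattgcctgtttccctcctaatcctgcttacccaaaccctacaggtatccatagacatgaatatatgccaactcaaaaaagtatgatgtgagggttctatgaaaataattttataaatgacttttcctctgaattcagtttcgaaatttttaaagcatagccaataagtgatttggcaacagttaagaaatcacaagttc
Myd88, chr9:119340019-119340268, minus strand: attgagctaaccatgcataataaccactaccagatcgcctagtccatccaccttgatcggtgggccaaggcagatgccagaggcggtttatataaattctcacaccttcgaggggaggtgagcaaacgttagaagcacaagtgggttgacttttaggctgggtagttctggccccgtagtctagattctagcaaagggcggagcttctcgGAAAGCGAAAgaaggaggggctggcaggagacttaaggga
Tlr9, chr9:106222348-106222597, plus strand: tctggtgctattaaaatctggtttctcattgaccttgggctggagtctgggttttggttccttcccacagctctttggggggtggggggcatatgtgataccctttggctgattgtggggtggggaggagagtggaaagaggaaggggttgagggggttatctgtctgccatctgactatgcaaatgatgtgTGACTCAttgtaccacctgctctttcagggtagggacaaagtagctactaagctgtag
A further window, inside the RefSeq span of Tlr6, held 2 overlapping matches to the interferon regulatory factor element, shown with flanks.
Tlr6, chr5:64959260-64959289, minus strand: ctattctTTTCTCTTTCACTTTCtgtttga

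Motifs were searched on both strands of 10 windows of 300 bases around annotated start sites, which cover 8 of the 10 genes. Tlr4 and Tlr7 were not analysed here in this way. The Gli motif GACCACCCA, the element bound by the transcription factors at the end of the Hedgehog pathway, was in 0 of the 10 windows and in 0.253% of all 32851 windows. The interferon regulatory factor element was in 2 of 10 (Myd88 and Tlr6) and in 3.44% of all. The loose NF-kB pattern (GGG, any 5 bases, CC) was in 4 of 10 (Tlr2, Tlr3, Tlr5 and Tlr6) and in 50.8% of all, and TGANTCA was in 1 of 10 (Tlr9) and in 7.81% of all. The windows of Tlr1 and Tlr8 held none of the 4 motifs. A match is a description of letters and not a binding site, and a missing match says only that those letters are not in the window.

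The chromosomal surroundings differed between the genes. In RefSeq order Tlr1 and Tlr6 lie side by side on chromosome 5, and the nearest tested gene on each side fell as well. Klf3, a transcription factor next to Tlr1, fell by 0.41 (SE 0.04, adjusted p = 5.87e-06), and Fam114a1 next to Tlr6 fell by 0.95 (SE 0.04, adjusted p = 9.92e-10), from 12.06 to 11.11. One gene further out, Tbc1d1 rose by 0.32 (adjusted p = 0.000288) and Klhl5 did not pass (-0.08, adjusted p = 0.221). At Tlr3 on chromosome 8, the nearest tested gene on one side, the actin scaffold gene Sorbs2, fell by 2.34 (SE 0.05, adjusted p = 2.92e-12) and the next but one on the other side, the cytochrome gene Cyp4v3, fell by 1.08 (SE 0.09, adjusted p = 6.49e-07). Fam149a, which lies between Cyp4v3 and Tlr3, rose by 0.24 (adjusted p = 0.000111).

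The genes around Tlr4 and Tlr5 had differences of -0.12 to 0.06, and 0 of 8 passed the threshold. At the X chromosome pair, Tlr8 was lower by 1.93 while Tmsb4x beside it fell by 0.22 (adjusted p = 0.00154) and Prps2 beyond Tlr7 rose by 0.16 (adjusted p = 0.0224). Mnd1, the second gene from Tlr2, rose by 0.80 (adjusted p = 8.6e-05). Around Tlr9, which was level, Poc1a rose by 0.37 (adjusted p = 0.000495) and Twf2 fell by 0.19 (adjusted p = 0.00435). Around Myd88, which was lower, Oxsr1 and Xylb rose by 0.16 and 0.18 (adjusted p = 0.0364 and 0.0279). Over all 32 neighbours, 6 fell, 8 rose and 18 did not pass, beside 17.4% lower and 21.3% higher among all genes.

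**Figure D3:**
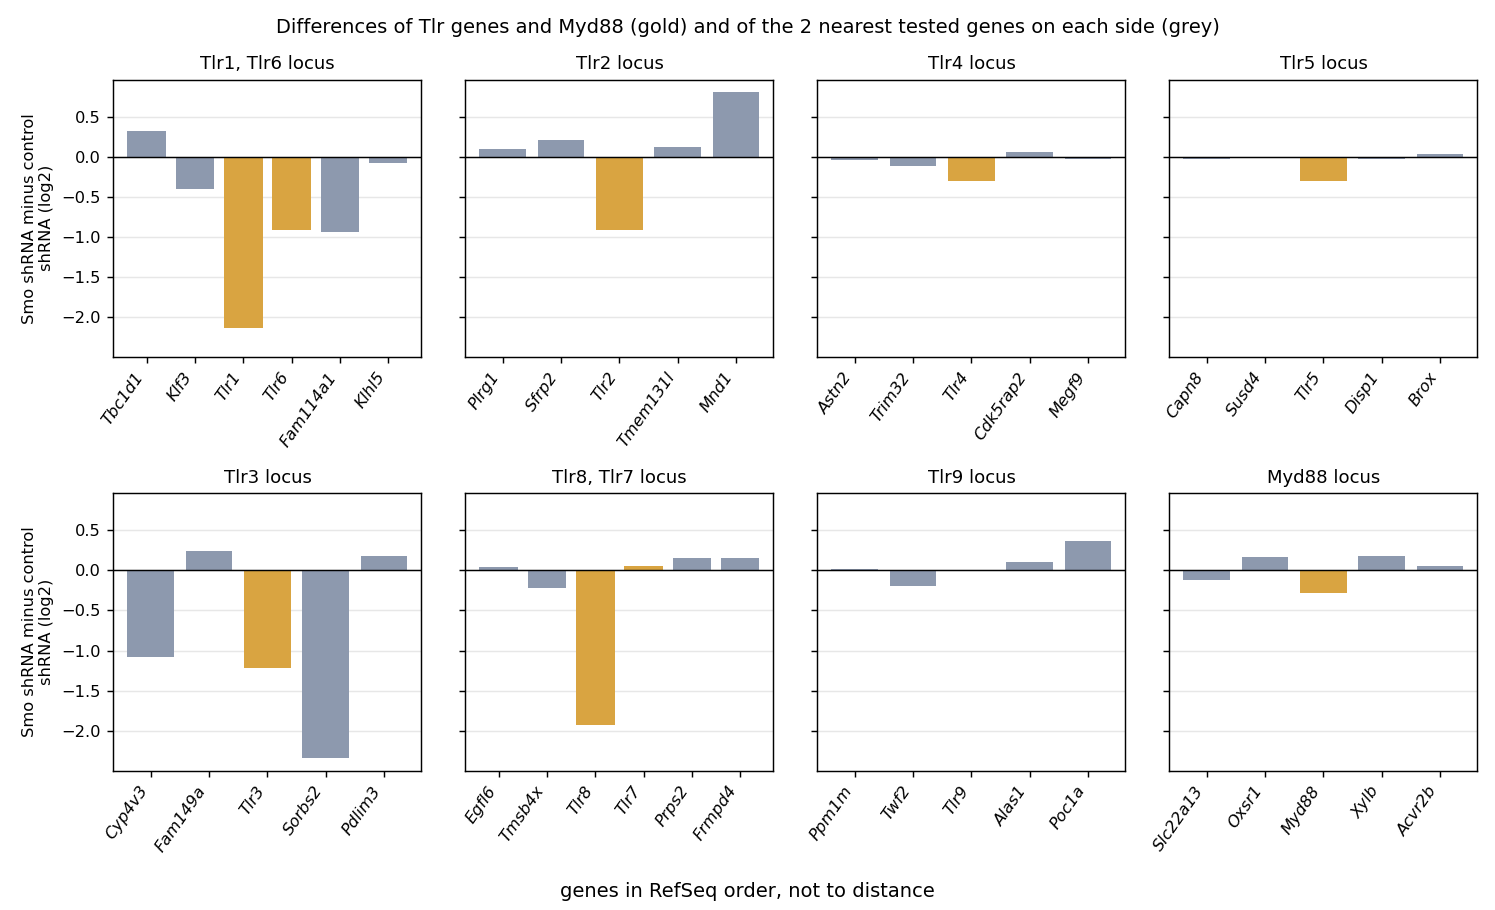
Log2 difference (Smo shRNA minus control shRNA, y axis) of each receptor gene and Myd88 (gold) and of the 2 nearest tested protein-coding genes on each side (grey), in RefSeq order. Tlr7 is drawn from all 9 of its probe sets. Klf3, Tlr1, Tlr6 and Fam114a1 are all below 0, at -0.41, -2.13, -0.91 and -0.95, and the genes around Tlr4 and Tlr5 lie near 0.

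The genes that work with the receptors were read against the same shares of all genes. The counts of each of the 6 lists below stand beside 17.4% lower and 21.3% higher among all genes. Among 17 tested accessory genes, 6 fell, 2 rose and 9 did not pass, with a median difference of -0.09. Ly96, the Md-2 subunit that binds lipopolysaccharide, fell from 12.14 to 11.84 (-0.30, SE 0.04, adjusted p = 6.91e-05), beside -0.31 for Tlr4. Lbp, which carries lipopolysaccharide to the receptor, fell by 0.57 (SE 0.08, adjusted p = 4.62e-05), whereas Cd14, the co-receptor to which it hands its cargo, read 9.66 and 9.54 and did not pass (-0.11, adjusted p = 0.175). Cd14 passed with each array centred on the median of its kept probe sets (-0.15, adjusted p = 0.0258). The adjusted p of Cd14 was above the threshold in the 13 other alternatives. Cd36, a scavenger receptor that assists Tlr2 with Tlr6 and also takes up fatty acids, fell by 1.53 (SE 0.06, adjusted p = 2.12e-10).

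The chaperone Hsp90b1, which folds most of the receptors, fell by 0.16 (SE 0.02, adjusted p = 7.39e-05). Unc93b1, which brings Tlr3, Tlr7, Tlr8 and Tlr9 to endosomes, read 8.73 and 8.60 and did not pass (-0.13, adjusted p = 0.175). The kinase Syk rose by 0.48 (SE 0.09, adjusted p = 0.000586) and the ubiquitin ligase Rnf170 by 0.36 (SE 0.05, adjusted p = 9.67e-05).

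In the list of adaptors and kinases below the receptors, 7 of 31 fell, 4 rose and 20 did not pass, with a median difference of 0.04. Leaving out control replicate 1 gave 5 lower and 2 higher. The other adaptors differed among themselves. Ticam1 (Trif), the adaptor of Tlr3, fell by 0.28 (SE 0.06, adjusted p = 0.00101), while Tirap, which bridges Myd88 to Tlr2 and Tlr4, read 10.62 and 10.70 (0.09, adjusted p = 0.259) and Ticam2 7.72 and 7.73 (0.01, adjusted p = 0.947). The central kinase Irak1 (0.03, adjusted p = 0.697) and the ubiquitin ligase Traf6 (0.07, adjusted p = 0.303) did not pass, and Irak4 was not analysed here.

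On the branch toward interferon, Ikbke fell by 0.48 (SE 0.06, adjusted p = 2.76e-05) and Tank, a scaffold of that kinase, by 0.28 (SE 0.06, adjusted p = 0.00162), while Traf3 rose by 0.55 (SE 0.06, adjusted p = 4.19e-06). The p38 activators moved in opposite directions. Map2k3 fell from 12.20 to 11.30 (-0.90, SE 0.04, adjusted p = 4.15e-10), and Map2k6 rose from 8.32 to 9.05 (0.73, SE 0.08, adjusted p = 4.68e-06). Map3k7 (Tak1) and Map2k4 rose by 0.13 and 0.12 (adjusted p = 0.0255 and 0.0171), calls that were lost in 5 of 14 alternatives each.

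Among 20 transcription factors and their inhibitors, 6 fell, 2 rose and 12 did not pass (median -0.08). Nfkb1, the p50 subunit of NF-kB, fell by 0.29 (SE 0.05, adjusted p = 0.000352), whereas Rela, the p65 subunit, read 11.97 and 12.05 and did not pass (0.08, adjusted p = 0.0828). Under a stricter filter (a mean of at least 8.22) Rela passed as higher (0.09, adjusted p = 0.0309). The inhibitors Nfkbie and Nfkbia fell by 0.52 (SE 0.07, adjusted p = 3.95e-05) and by 0.16 (SE 0.05, adjusted p = 0.0292). The call of Nfkbia was lost in 6 of 14 alternatives, and its difference was -0.11 without control replicate 3. Irf5, which acts with Myd88, fell by 0.29 (SE 0.06, adjusted p = 0.001). Fos, a part of AP-1, fell by 1.14 (SE 0.11, adjusted p = 2.29e-06), and the stress factor Atf3 and Cebpb rose by 0.42 and 0.33 (adjusted p = 0.000598 and 0.000228).

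Of 18 genes that restrain the receptors, 6 fell, 5 rose and 7 did not pass (median -0.01). Those that fell included Tnfaip3 (A20), a deubiquitinase that is itself an NF-kB target (-0.55, SE 0.07, adjusted p = 1.64e-05), its partner Tnip1 (-0.42, SE 0.06, adjusted p = 9.63e-05) and Cyld (-0.33, SE 0.07, adjusted p = 0.00114). Trim30a fell from 11.24 to 9.35 (-1.89, SE 0.09, adjusted p = 1.65e-09), and its close paralogs can share signal with it. Those that rose included Tollip (0.31, SE 0.05, adjusted p = 0.000272), Socs3 (0.38, SE 0.07, adjusted p = 0.000547), Sigirr (0.40, SE 0.08, adjusted p = 0.000953) and Dok1 (0.19, SE 0.06, adjusted p = 0.0161). Sigirr missed the threshold with the stricter filter (0.26, adjusted p = 0.0529), and Dok1 without Smo shRNA replicate 3.

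Of 10 tested genes of the interleukin 1 and 18 branch, which also uses Myd88, 3 fell, 1 rose and 6 did not pass (median -0.06). The receptor Il1r1 fell by 0.16 (SE 0.05, adjusted p = 0.01), a call lost without control replicate 1 or 3, and the antagonist Il1rn fell by 0.30 (SE 0.04, adjusted p = 1.92e-05). Taken as the mean of its probe sets in place of the median polish, Il1rn fell by 0.54. The cytokine Il18 fell from 8.84 to 7.41 (-1.43, SE 0.11, adjusted p = 1.62e-07), and Il33 rose from 6.95 to 7.50 (0.55, SE 0.11, adjusted p = 0.00152), a call lost without control replicate 2.

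Of 31 tested genes that receptor activation commonly raises, 9 fell, 2 rose and 20 did not pass (median -0.08). Without Smo shRNA replicate 2 the counts were 7 lower and 0 higher. Among those that fell were the chemokines Cxcl5 (-0.88, SE 0.07, adjusted p = 4.08e-07), Ccl2 (-0.59, SE 0.04, adjusted p = 2.49e-08) and Ccl7 (-0.48, SE 0.03, adjusted p = 1.31e-07) and the guanylate-binding protein gene Gbp2 (-0.77, SE 0.11, adjusted p = 6.65e-05), which has close paralogs. As the mean of its probe sets, Ccl2 fell by 0.94. Il6 read 9.54 and 9.31 and did not pass (-0.23, adjusted p = 0.0765). Il6 passed in 4 of 14 alternatives, and over the 14 its adjusted p ran from 0.00672 to 0.509. Sod2 rose by 0.27 (SE 0.05, adjusted p = 0.00111), which was lost without Smo shRNA replicate 2. The Sod2 difference was 0.16 without control replicate 1, 0.17 without control replicate 2 and 0.41 as the mean of its probe sets. Cxcl10 rose by 0.25 (SE 0.09, adjusted p = 0.0432), which was lost in 9 of 14 alternatives, and the difference was 0.15 without control replicate 2 and 0.16 as the mean of its probe sets. The cytokine Tnf, picked with its values in view, read 7.48 and 7.43 and did not pass (-0.05, adjusted p = 0.775).

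**Figure D4:**
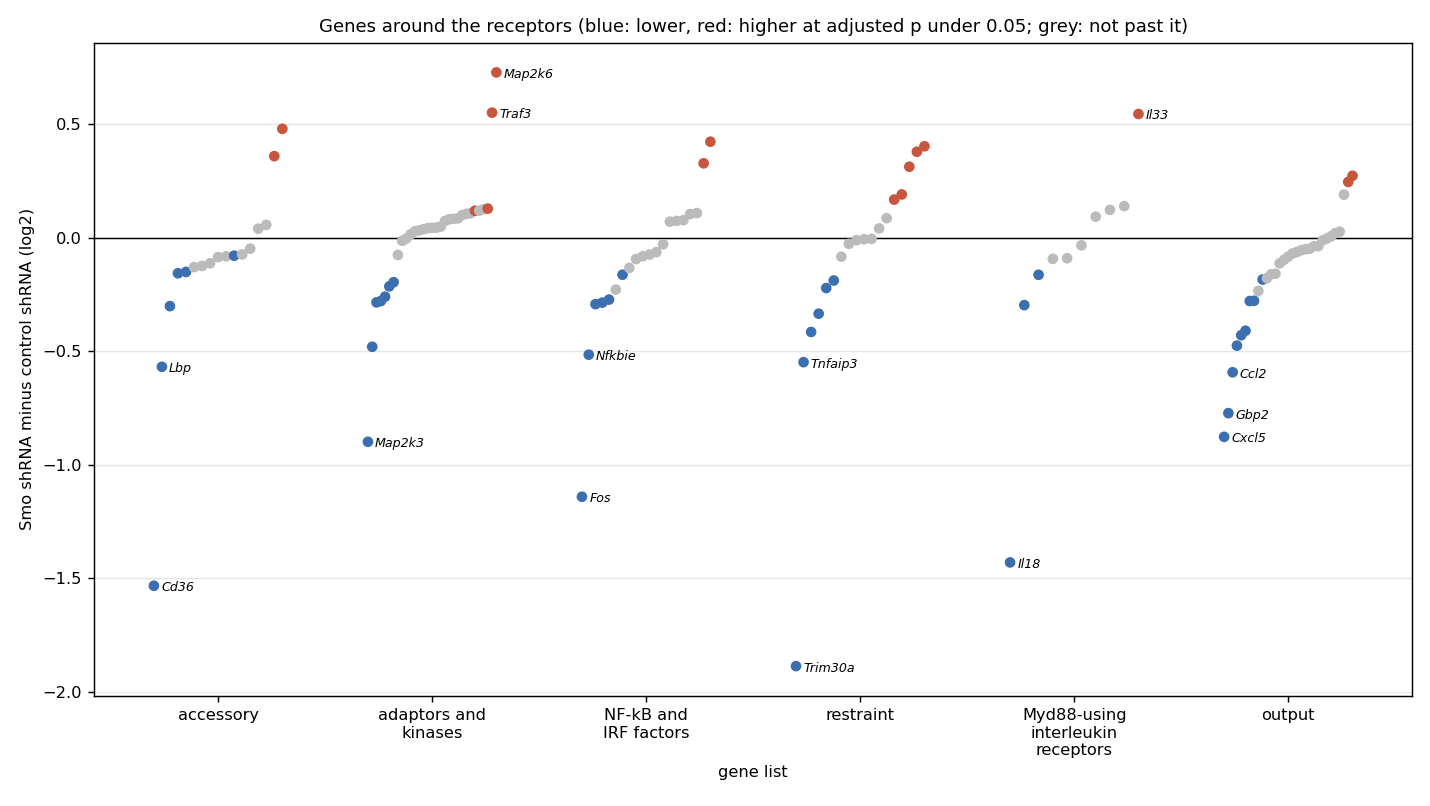
Log2 difference (Smo shRNA minus control shRNA, y axis) of each tested gene in 6 lists around the receptors. Blue points were lower and red points higher at an adjusted p under 0.05 in limma, grey points did not pass, and names mark passing genes beyond 0.5 in size. The medians of the 6 lists lie between -0.09 and 0.04. Cd36, Map2k3, Fos, Trim30a, Il18 and Cxcl5 are the lowest of their lists at -1.53, -0.90, -1.14, -1.89, -1.43 and -0.88.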

How the data were processed

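The deposited table holds log2 values, 1 per exon probe set and array, made by the authors. The scale was read from the values (0 to 15.14). The sources used here do not give how the authors summarised and normalized them. A total of 20744 probe sets read 0 on every array. No 2 arrays shared more than 0.0237% of their other values.

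Gene names came from the platform annotation (318760 probe sets with 1 symbol, 6684 with several, left out, and 931387 unnamed here), updated through synonyms in the RefSeq table of GRCm38.p6. Probe sets with a mean of at least 6.56 were kept (245574), and a gene with 3 or more received 1 value per array through Tukey's median polish. The fit of the 3 against 3 arrays used limma 3.58.1 in R 4.3.3 (lmFit, eBayes with a variance trend, two-sided, Benjamini-Hochberg over all 16871 genes, or over all kept probe sets). Differences are Smo shRNA minus control shRNA, and SE is moderated. Levels are never compared between genes, and folds of dim genes are understated. The number of arrays limits the precision. The calculation was tested on simulated data.

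The members and lists were chosen with earlier results of these data known. Named were the 10 genes, for each of the 6 lists up to 4 passing genes in each direction by size without overlap, and a fixed set of partners. Neighbours and motifs were added later. The alternatives are given in the closing section.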

Additional observations from a re-analysis of the deposited data

How the results depend on the processing

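Planned changes to probe sets were no filter or a stricter filter (at least 8.22) on dim ones, and at least 5 per gene. The mean of probe sets also replaced the median polish. Planned changes of scale were quantile normalization and median centring, in which each array was centred on the median of its kept probe sets. The other planned changes were no variance trend, the replicate number as a block, and leaving out each array. Tlr1, Tlr2, Tlr3, Tlr4, Tlr5, Tlr6, Tlr8 and Myd88 were lower under every alternative that gave them a value. Tlr1 and Tlr8 had none with the stricter filter, and Tlr2 and Tlr8 none with at least 5 probe sets. The differences ran from -2.24 to -2.00 for Tlr1, from -2.09 to -1.68 for Tlr8, from -1.33 to -1.16 for Tlr3, from -1.03 to -0.65 for Tlr2 and from -0.96 to -0.84 for Tlr6. Tlr9 lay between -0.04 and 0.01. The number of the 9 genes past the threshold was 7 to 8 with 1 array left out and 6 to 8 otherwise, against 8. Leaving out 1 array gave 7 to 11 passing adaptor and kinase genes and 7 to 11 passing output genes, against 11 each, and 4801 to 5524 of all genes, against 6518. Fits that leave out an array have fewer samples, and a further cause was not tested.

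Whether the replicate numbers pair the samples was not settled. Deviations of same-numbered arrays correlated across genes at 0.08, 0.10 and 0.39, and control replicate 2 correlated best with Smo shRNA replicate 1 (0.31). Differently numbered arrays correlated at -0.37 to 0.31. With the replicate block 6924 genes passed and 8 of the 9 genes described here, and 45 of their probe sets. No detection call was used, so a level near 6.56 cannot be told from background. A gene value above 6.56 is not by itself shown to be above background either.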

Other observations

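For the 3 genes with the largest differences, the tested genes with the most similar profile were listed by the root mean square distance over the 6 arrays, after the control mean of each gene was subtracted. Closest to Tlr1 were Pcp4, a calmodulin-binding peptide gene (distance 0.07, difference -2.16), the prostaglandin F receptor gene Ptgfr (0.12, -1.98) and the kinase gene Nuak1 (0.14, -2.05). Closest to Tlr8 were again Ptgfr (0.05), the retinal reductase gene Dhrs3 (0.08, difference -1.87) and 4933416E03Rik (0.09, -1.83). Closest to Tlr3 were the proteoglycan gene Omd (0.04, difference -1.24), the collagen gene Col10a1 (0.05, -1.26) and the protease inhibitor gene Serpinb1a (0.06, -1.18). With 2 groups of 3 arrays, likeness mostly reflects the size of the difference between the lines, and 15, 34 and 114 genes lay within 0.2 of Tlr1, Tlr8 and Tlr3.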
